A study of Mus musculus with 3 samples.

Results

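The 10 genes described here are interleukin-6 (IL-6) family cytokines and receptors, a STAT factor and feedback inhibitors of cytokine receptors. They were taken by gene symbol from a table of 53342 genes counted in mouse lung. They are the ligands Il6, Osm and Lif, the receptor chains Il6ra, Osmr and Lifr, the transcription factor Stat5a and the feedback inhibitors Socs3, Socs2 and Cish. All 10 were found in the table, and all 10 passed the filter on low counts that left 17636 genes for testing. The lungs came from 3 male C57Bl/6 mice, named mouse 4, 5 and 6 after the last digit of their labels, with 1 bulk RNA sequencing library per mouse. Each mouse had microparticles made from Mycobacterium abscessus (MAB) placed in the trachea, in a volume of 50 µL that matched 1000000 bacteria, so that granulomas would develop. MIA-602, which blocks the receptor of growth hormone-releasing hormone, was then injected beneath the skin of each mouse at 5 µg every day for 3 weeks. The ages of the mice are not given in the labels. The 3 mice form 1 labelled group, and lungs without the particles or without the drug were not analysed here. The values below are therefore levels and their spread between mice, and they show neither what the particles nor what the drug did.

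Cytokines of the IL-6 family share the signalling chain gp130, encoded by Il6st. IL-6 first binds its own receptor chain, IL-6Rα, whereas oncostatin M (Osm) in the mouse acts mainly through the oncostatin M receptor and leukaemia inhibitory factor (Lif) through the LIF receptor, each joined to gp130. JAK kinases on these receptors then phosphorylate STAT3 and other STAT proteins, and STAT3 induces Socs3, whose protein binds gp130 and shuts the receptor off. CIS (encoded by Cish) and SOCS2 belong to the same inhibitor family, are induced through STAT5, and restrain receptors such as those for growth hormone, prolactin and several interleukins. In the lung the family is known for roles in acute-phase gene expression, epithelial repair and fibrosis.

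STAT proteins are known to bind a short palindrome, TTCNNNGAA, which was looked for near the members' start sites. The promoter windows of RefSeq (build GRCm38.p6, 250 bases before to 50 after each annotated start) covered 8 of the 10 genes in 10 windows (all but Osm and Socs2). The motif, which reads the same way on both strands, was present in the windows of 2 of those 8 genes, the inhibitors Cish and Socs3. Over all 32851 windows, 8.30% held it. The same motif with 1 more spacer base was present in none of the 10 windows and in 6.95% of all windows. Both inhibitor sequences are shown because they hold the motif, which is in capitals. The Cish stretch (chr9:107296654-107296683, plus strand) holds 2 motifs, at positions 1 and 12 counted from the annotated start as 1, and lies in the first exon of 1 longer GENCODE transcript. The Socs3 stretch (chr11:117969467-117969566, minus strand) holds 1 motif, 154 bases before the annotated RefSeq start. In GENCODE the gene reaches farther upstream, so that this stretch lies inside the Socs3 span given below, in an intron of 1 transcript and before the start of the others.
Cish: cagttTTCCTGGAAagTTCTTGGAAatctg
Socs3: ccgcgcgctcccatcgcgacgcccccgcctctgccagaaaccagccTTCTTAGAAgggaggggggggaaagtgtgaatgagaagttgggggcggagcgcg
A match is a description of these letters and does not show that a STAT protein was bound there in these lungs.

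The libraries held between 31579465 and 43845715 counts, so that 1 count equals 0.0232 to 0.0315 CPM (counts scaled to 1000000 per library after TMM scaling). Lung markers were abundant in every library, with all 6 alveolar type 2 cell markers and all 6 endothelial markers above 1 CPM. Mouse 4 stood apart in some tissue markers, and mouse 5 in others. All 8 skeletal muscle markers and all 7 squamous epithelium markers were highest in mouse 4. The skeletal muscle list summed to 5129 CPM in mouse 4, 1900 CPM in mouse 5 and 1629 CPM in mouse 6. All 5 cardiac muscle markers were lowest in mouse 5, at sums of 312, 147 and 317 CPM in mice 4, 5 and 6. So were 5 of 6 dendritic cell markers. In bulk tissue, fewer cells of a type and less RNA per cell cannot be told apart. Each library is labelled as its own mouse. Values are given for mice 4, 5 and 6 in that order, then as the mean ± SD over mice (n = 3).

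Among the ligands, Il6 was scarce and its relatives Osm and Lif were several times more abundant. Il6, the founding cytokine of the family (ENSMUSG00000025746, chromosome 5, 30013114 to 30019981, plus strand, mm10), had 54, 55 and 55 counts. These equal 1.25, 1.52 and 1.73 CPM, or 1.50 ± 0.241. The 95% exact Poisson intervals of the 3 libraries, 0.942 to 1.64, 1.15 to 1.98 and 1.31 to 2.26 CPM, overlapped one another, so differences between mice were not detectable at this depth. Such intervals cover counting error only.

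Osm, a cytokine released by activated macrophages, neutrophils and T cells (ENSMUSG00000058755, chromosome 11, 4236420 to 4241026, plus strand), had 385, 173 and 219 counts. Its level was 8.94, 4.78 and 6.91 CPM, or 6.88 ± 2.08. The order was mouse 4 above mouse 6 above mouse 5, and the counting intervals of the 3 libraries did not overlap. Lif, known for roles in epithelial protection and stem cell maintenance (ENSMUSG00000034394, chromosome 11, 4257557 to 4272514, plus strand), had 439, 288 and 337 counts. It stood at 10.2, 7.96 and 10.6 CPM, or 9.59 ± 1.43, with mouse 5 again lowest. Osm and Lif are neighbours, 16530 bases apart in the same orientation with no protein-coding gene between them.

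Levels of different genes were compared per kilobase of annotated exon, since longer transcripts yield more reads. On that scale Il6 lay below Osm by 1.94 ± 0.53 log2 units and below Lif by 1.49 ± 0.27, each in 3 of 3 mice (log2 of CPM + 0.5, divided by exon length). The corresponding ratios were 0.26 and 0.356. Their size depended on the pseudocount because Il6 was scarce. The log2 differences were −2.18 and −1.76 with a pseudocount of 0.1, and −1.72 and −1.24 with a pseudocount of 1. Osm lay above Lif by 0.45 ± 0.27 in 3 of 3 mice, a ratio of 1.37. This order depended on the length correction, because without it the difference was −0.48. With 3 mice the smallest p of an exact sign-flip test (two-sided) is 0.25, so that none of the 13 gene pairs compared could pass a threshold of 0.05.

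**Figure D1:**
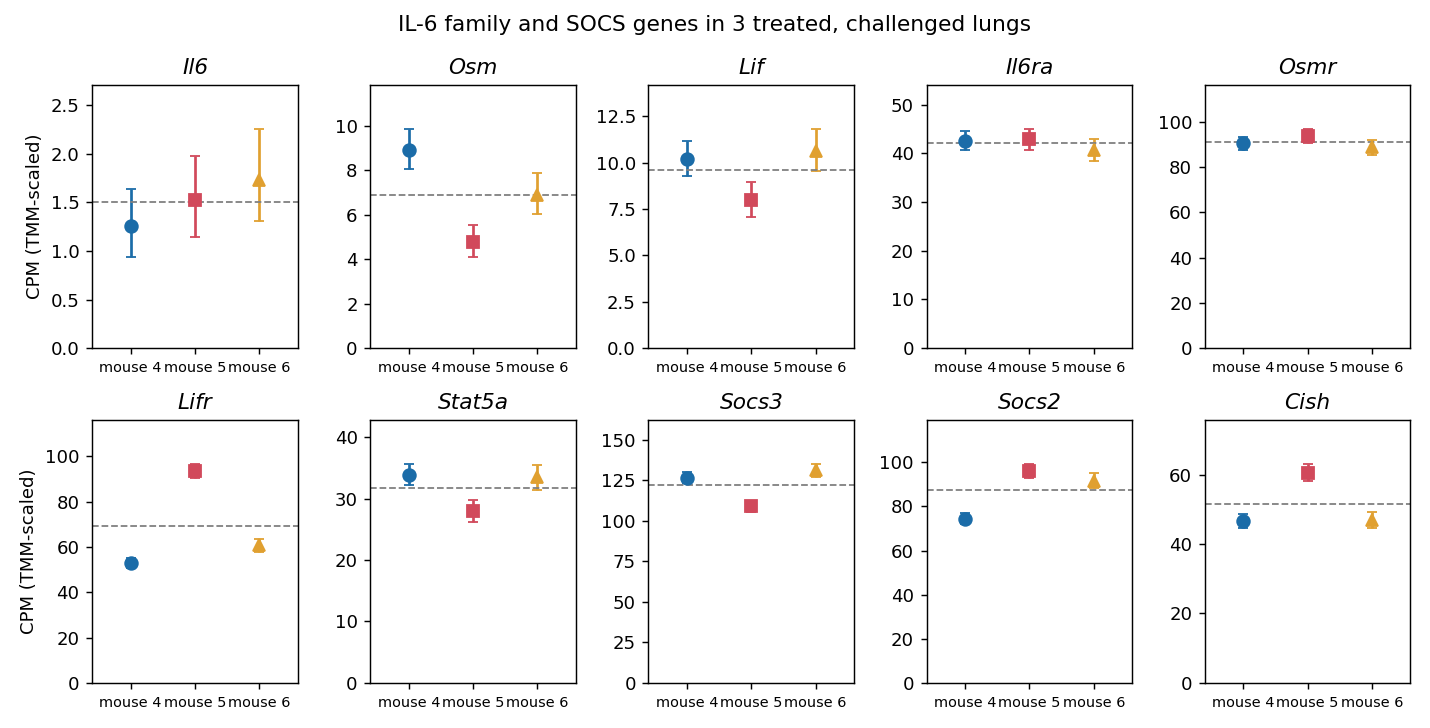
Level of each gene in CPM (vertical axes from 0, TMM-scaled) in mouse 4 (circle), mouse 5 (square) and mouse 6 (triangle); bars are 95% exact Poisson intervals, which cover counting error only, and dashed lines are means over the 3 mice. Il6ra and Osmr are nearly level, Lifr and Cish are highest in mouse 5 (93.6 and 60.6 CPM), and Osm is lowest there (4.78 CPM).

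The receptor chains split into a pair that was nearly constant between mice and one that was not. Il6ra, the chain that binds IL-6 and can also be shed as a soluble receptor (ENSMUSG00000027947, chromosome 3, 89864059 to 89913196, minus strand), stood at 42.6, 42.8 and 40.6 CPM, or 42.0 ± 1.24. Osmr, the oncostatin M receptor of stromal, epithelial and endothelial cells (ENSMUSG00000022146, chromosome 15, 6813577 to 6874969, minus strand), stood at 90.6, 93.7 and 88.8 CPM, or 91.0 ± 2.49. Their coefficients of variation (CV), 2.94% and 2.74%, were close to the 2.56% and 1.74% that counting alone gives.

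Lifr, the LIF receptor (ENSMUSG00000054263, chromosome 15, 7090614 to 7197489, plus strand), had 2280, 3384 and 1923 counts. It stood at 52.9, 93.6 and 60.6 CPM, or 69.1 ± 21.6. Mouse 5 was highest, and its counting interval of 90.5 to 96.8 CPM did not overlap those of mouse 4 (50.8 to 55.1 CPM) and mouse 6 (58.0 to 63.4 CPM). Lifr and Osmr are neighbours too, 215.6 kb apart on opposite strands with no protein-coding gene between them. Both were highest in mouse 5, Osmr by a margin near its counting error.

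Per kilobase of exon, Osmr over Lifr was 0.60, −0.17 and 0.38 on the log2 scale, or 0.27 ± 0.39. The sign differed between mice, so on this length the receptors were not separated beyond the spread. With the longest transcript as length in place of all annotated exons they were, with Osmr at 16.2 to 17.1 and Lifr at 5.48 to 9.69 CPM per kilobase and a mean log2 difference of 1.25, as Osmr has 12113 bases of annotated exon but a longest transcript of 5491.

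All 3 chains lay below the shared chain gp130. Il6st stood at 199, 239 and 222 CPM, or 220.03 ± 20.2. Per kilobase, Il6ra lay below Il6st by 2.01 ± 0.14, Lifr by 1.66 ± 0.31 and Osmr by 1.39 ± 0.12 log2 units, each in 3 of 3 mice. With the longest transcript as length, the gap between Osmr and Il6st was −0.60.

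Among the inhibitors, Socs3 stood far above every other member per length, while Socs2 and Cish lay near the receptor chains. Socs3, the brake on gp130 (ENSMUSG00000053113, chromosome 11, 117966079 to 117970047, minus strand), had 5456, 3944 and 4166 counts. It stood at 127, 109 and 131 CPM, or 122 ± 11.8, and ranked 1238th of 17636 tested genes in CPM per kilobase. Mouse 5 was the lowest of the 3 libraries.

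Socs2, which restrains growth hormone receptor signalling (ENSMUSG00000020027, chromosome 10, 95385362 to 95417180, minus strand), stood at 74.5, 96.2 and 91.6 CPM, or 87.4 ± 11.5. Mouse 4 was lowest. Cish, the cytokine-inducible SH2 protein gene whose tandem motifs are printed above (ENSMUSG00000032578, chromosome 9, 107296026 to 107302784, plus strand), stood at 46.7, 60.6 and 46.9 CPM, or 51.4 ± 7.97. Mice 4 and 6 were alike in Cish and mouse 5 was higher, outside the counting intervals of both. The summed level of the 3 inhibitors was 248, 266 and 269.9 CPM. That of the 3 ligands was 20.4, 14.3 and 19.3 CPM. These sums were not divided by exon length, so they do not compare the inhibitors with the ligands per length.

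Per kilobase of exon, Socs3 exceeded Socs2 by 2.21 ± 0.29 and Cish by 2.40 ± 0.35 log2 units, in 3 of 3 mice each, or 4.62-fold and 5.28-fold. With the longest transcript as length, the difference from Socs2 was 1.22 and that from Cish 2.13. Cish lay below Socs2 by 0.19 ± 0.17 in 3 of 3 mice, a gap of −0.91 by longest transcript. Socs1, the inhibitor induced by interferon-gamma and no member of the group, stood at 82.3, 55.8 and 95.5 CPM, and Socs3 exceeded it by 0.69 ± 0.26 log2 units per kilobase.

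Stat5a and Stat5b encode the STAT5 proteins, through which Cish and Socs2 are induced. Stat5a (ENSMUSG00000004043, chromosome 11, 100859351 to 100885169, plus strand) stood at 33.9, 28.0 and 33.4 CPM, or 31.8 ± 3.31, with mouse 5 lowest. It lies between its near relative Stat5b, 8626 bases away, and Stat3, with which it shares 72 bases of exon on opposite strands (1.01% of its exon length). Whether counting used strand is not given in the sources used here. Reads in those 72 bases therefore cannot be assigned to a gene, and stretches that Stat5a shares with Stat5b could also split reads. Per kilobase, Stat5a lay below Stat5b by 1.51 ± 0.10, and Stat3 lay above Stat5a by 2.56 ± 0.05 log2 units, in 3 of 3 mice each. With the longest transcript as length the first of these was −0.75.

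Of the other members, Il6ra and Cish overlap antisense or pseudogene features that had at most 18 counts in any library. The shared exon made up 2.80% of the exon length of Il6ra and up to 7.46% of that of Cish. The remaining 7 members share no annotated exon with another gene.

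In order of mean CPM per kilobase of exon, the members ran Socs3 at 42.3, Socs2 at 9.17, Cish at 8.01, Osmr at 7.51, Lifr at 6.41, Il6ra at 4.86, Stat5a at 4.45, Osm at 3.03, Lif at 2.21 and Il6 at 0.619. By range over mice, only the first and the last stood clear. Socs3 did not overlap Socs2 in its range over mice, nor Lif Il6, while each of the 7 other neighbouring pairs overlapped. Within mice, Socs2 over Cish, Il6ra over Stat5a, Stat5a over Osm and Osm over Lif held in 3 of 3. Osmr over Lifr and Lifr over Il6ra held in 2 of 3, and Cish over Osmr in 1 of 3. By longest transcript, Osmr moved above Cish and Stat5a above Lifr, and only Stat5a and Lifr, and Osm and Lif, overlapped as neighbours. The median member stood at 5.63 CPM per kilobase, against 4.48 for all genes tested. All 10 members reached 1 CPM in every mouse, as did 86.2% of all genes tested.

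**Figure D2:**
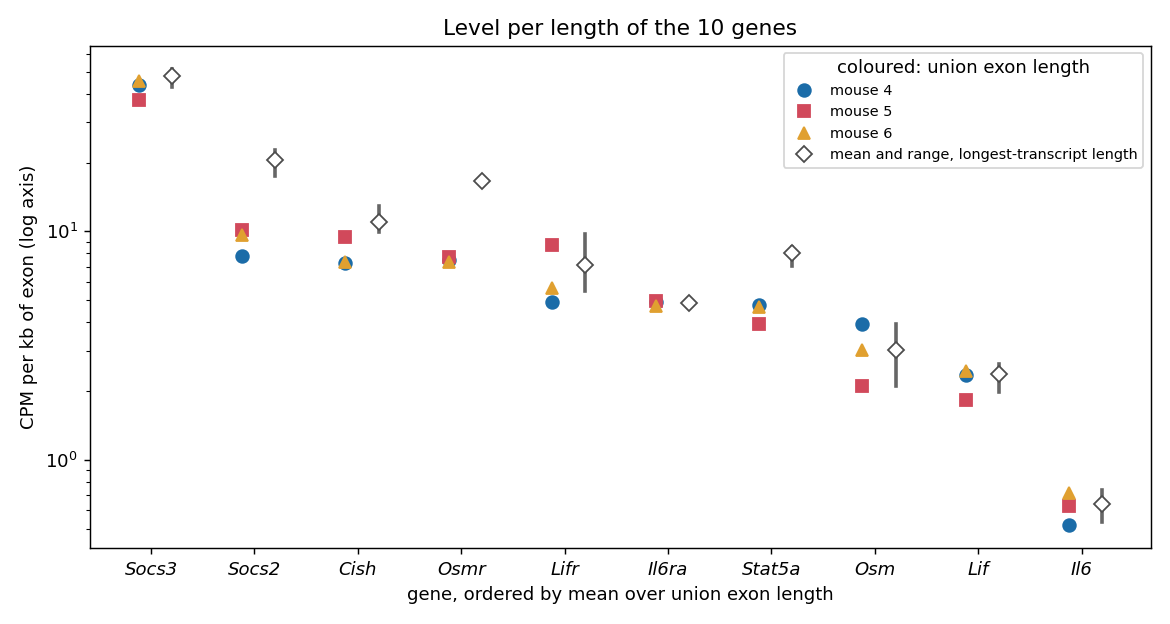
CPM per kilobase of exon (log axis) for the 10 genes, ordered by their mean; coloured markers are mice 4, 5 and 6 with all annotated exons as length, and open diamonds with bars are the mean and range with the longest transcript as length. Socs3 is at the top at 42.3 and Il6 at the bottom at 0.619, and the length used moves Osmr and Socs2 most.

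Spread between the mice differed widely among the members. Lifr had a CV of 31.3% and Osm of 30.2%, against 2.04% and 6.57% from counting alone. Il6 had 16.0%, of which counting alone gives 13.5%, and Cish, Lif, Socs2, Stat5a and Socs3 lay between 9.61% and 15.5%.

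Spread was tested across all 17636 genes with edgeR's quasi-likelihood fit, which asks whether a gene varies more than the trend for genes of its level. No member passed, with 0 of 10 members against 0% of all genes tested at a Benjamini-Hochberg adjusted p of 0.05. On simulated data this test found only 11 to 23 of 50 genes shifted 2-fold in 1 library. Shifts of that size or smaller could therefore be missed. The edgeR adjusted p was 0.955 for Lifr, 0.968 for Osm and at least 0.984 for the other 8. Without adjustment 867 genes (4.92%) fell under 0.05, and Lifr was the 1 member among them, at place 307 of 17636 by p. limma called 0 genes after adjustment as well, and 876 without it. Lifr rested on mouse 5, since its unadjusted edgeR p was 0.0191 with all mice and 0.247 without that one. When every gene with at least 1 count entered the fit, edgeR called 629 genes, Lifr among them (adjusted p = 0.00435). Over all settings the adjusted p of Lifr from edgeR or limma ran from 0.00435 to 0.984.

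By size alone, none of the 10 members differed over 2-fold between any 2 mice. Over all genes tested, 2.54% did so for mouse 4 against mouse 5, 1.63% for mouse 4 against mouse 6, and 0.663% for mouse 5 against mouse 6, so that 0 of 10 is near the background. The widest gaps were those of Osm and Lifr between mice 4 and 5, at 0.84 and −0.82 on the log2(CPM + 0.5) scale. Gaps at least that wide were seen in 4.35% and 4.64% of all genes tested. Each of these compares 1 library with 1 library and has no replicate check. Mouse 5 held the highest value of 5 members and the lowest of 4, where 36.4% of all genes tested were highest and 36.8% lowest.

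**Figure D3:**
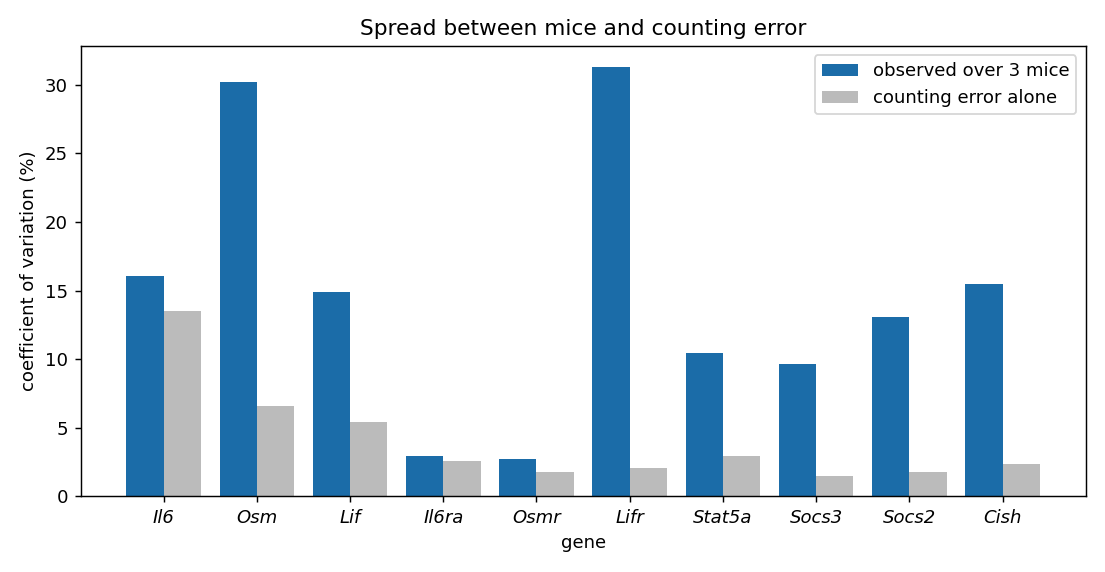
Coefficient of variation over the 3 mice (blue bars, %) beside the value that counting error alone gives (grey bars, %) for each gene. Lifr and Osm exceed 30%, whereas Il6ra and Osmr stay under 3% and Il6 is close to its counting error.

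Markers of other cell types moved with both variable members. All 6 endothelial markers were highest in mouse 5, as Lifr was, and the list summed to 1287, 1825 and 1360 CPM in mice 4, 5 and 6. Of the alveolar type 1 markers, 4 of 5 were highest in mouse 5 (sums of 2851, 4006 and 2668 CPM). So were 5 of 6 alveolar type 2 markers and 5 of 6 ciliated cell markers, so this pattern was not particular to endothelial markers. Hepatocyte markers were also highest in mouse 5, 5 of 5, at sums of 3.90, 11.3 and 1.67 CPM, led by albumin (Alb) with 120, 314 and 37 counts, the 1 gene of that list that passed the filter. None of these lists had a defining marker at 0 counts.

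Monocyte and macrophage markers took the order of Osm, with sums of 2328, 1447 and 1795 CPM, and 6 of 7 were highest in mouse 4 and lowest in mouse 5. All 6 T cell markers were lowest in mouse 5 (sums of 289, 207 and 326 CPM). B cell markers were lowest there too, 5 of 5. The adipocyte list took the order of Osm as well, with sums of 53.0, 20.7 and 48.4 CPM. Neutrophil markers, at sums of 279, 243 and 183 CPM, did not take that order. Neither did alveolar macrophage markers, at sums of 516, 634 and 610 CPM.

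Relative to these lists the spread of Lifr and Osm was smaller. Per 1000 CPM of endothelial markers, Lifr stood at 41.1, 51.3 and 44.6 CPM. Its highest value was 1.25 times its lowest, against 1.77 times in CPM. Per 1000 CPM of alveolar type 1 markers, Lifr stood at 18.6, 23.4 and 22.7 CPM, or 1.26 times. The smaller spread was therefore not particular to endothelial markers. Osm stood at 3.84, 3.31 and 3.85 CPM per 1000 CPM of monocyte and macrophage markers, or 1.16 times against 1.87 times in CPM. For Lif the same division left the spread as it was, at 1.35 times against 1.33 times. Cish per 1000 CPM of endothelial markers had its highest value at 1.09 times its lowest, against 1.30 times in CPM, and per 1000 CPM of T cell markers at 2.03 times. For Socs2 the division by endothelial markers left 1.28 times, against 1.29 times in CPM. The lists set beside each gene were chosen after the values were seen, and the part of these cells in the spread was not tested.

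**Figure D4:**
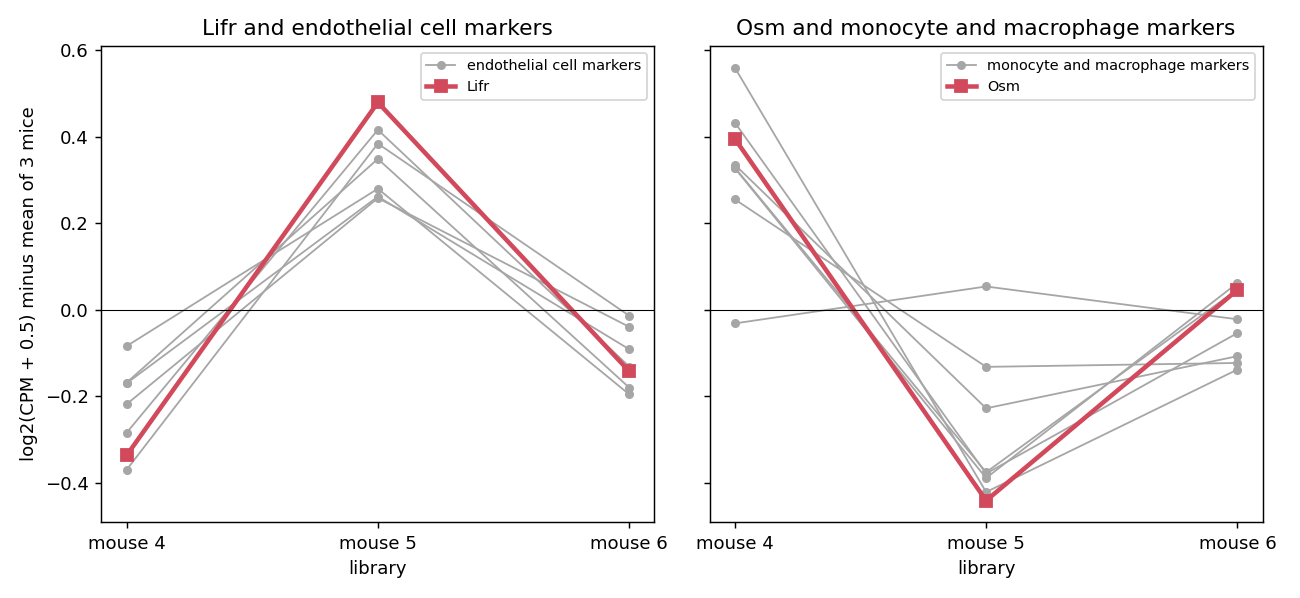
Difference of each gene from its own mean over the 3 mice on the log2(CPM + 0.5) scale, for Lifr with 6 endothelial markers (left) and Osm with 7 monocyte and macrophage markers (right); the coloured line is the named gene and grey lines are single markers. All endothelial markers peak in mouse 5 with Lifr, and 6 of 7 macrophage markers are lowest there with Osm.

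The other family ligands were uneven, with 5 of 9 at 1 CPM in every mouse. Clcf1, a ligand that acts through the CNTF receptor, stood at 33.6 ± 6.46 CPM. Ebi3 and Il27, the subunits of IL-27, stood at 24.5 ± 6.67 and 7.37 ± 2.05 CPM. Both were highest in mouse 4 and lowest in mouse 5, as Osm was, with Ebi3 at 30.6, 17.4 and 25.3 CPM. Ctf1 (cardiotrophin 1) stood at 5.14 ± 1.23 CPM and Il11 at 0.701 ± 0.118 CPM. No count of Ctf2 or Il31 was found in any library, for which the limit set by 3 counts is 0.0696 CPM in mouse 4, 0.0830 CPM in mouse 5 and 0.0946 CPM in mouse 6.

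Of the 6 other receptors, 4 reached 1 CPM in every mouse. Il11ra1, the IL-11 receptor, stood at 91.1 ± 13.6 CPM, although its ligand Il11 was scarce. Il27ra stood at 29.1, 19.2 and 32.7 CPM, lowest in mouse 5, and Cntfr at 3.06 ± 0.622 CPM. Il31ra had 7, 6 and 8 counts and Il11ra2, a near copy of Il11ra1 with which reads could be split, had 0, 1 and 0.

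All 10 JAK and STAT genes beside Stat5a were lowest in mouse 5 (9 of 10 when scaled by library total alone), where 36.8% of all genes tested were lowest. Stat3 stood at 253 ± 18.03 CPM, Jak1 at 192 ± 12.1, Stat2 at 183 ± 24.6, Stat6 at 159 ± 10.4 and Jak3, the kinase of common gamma chain receptors, at 122 ± 21.9. Stat5b stood at 70.8 ± 2.74 CPM. None was over 2-fold apart between mice, and none passed the spread test. Among the brakes, all 13 reached 1 CPM. The phosphatases Ptpn6 (SHP-1), Ptpn1 and Ptpn11 (SHP-2) stood at 203 ± 41.5, 169 ± 18.9 and 92.6 ± 8.43 CPM. The STAT inhibitor Pias1 stood at 71.9 ± 3.70 CPM and the phosphatase Ptpn2 at 53.9 ± 2.77 CPM. The relatives Socs4, Socs5, Socs6 and Socs7 lay between 21.97 and 35.7 CPM.

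Of the genes known to be induced through STAT3, 13 of 16 reached 1 CPM in every mouse. Among the 14 that passed the filter this was 13, against 86.2% of all genes tested. Saa3, a serum amyloid, stood at 2643, 1187 and 1535 CPM, and Lcn2 (lipocalin 2) at 1397, 917 and 1205. Both took the order of Osm. Haptoglobin (Hp) did not, at 847, 1166 and 1043 CPM. Icam1, Junb and Cebpb stood at 545 ± 24.5, 248 ± 32.7 and 246 ± 30.6 CPM. Of the 16, 11 were lowest in mouse 5 (10 or 11 under other scalings). Over 2-fold apart for mouse 4 against mouse 5 were 2 of the 14 tested genes of this list, Saa3 and the fibrinogen chain Fgg. For mouse 5 against mouse 6 it was 1 of 14, Fgg. The shares over all genes tested were 2.54% and 0.663%.

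Receptors that signal through STAT5 included the growth hormone receptor Ghr at 40.2, 58.0 and 40.1 CPM, highest in mouse 5 as Cish was. Csf2ra and Csf2rb, the chains of the GM-CSF receptor, stood at 258 ± 59.04 and 164 ± 35.5 CPM, Il3ra at 77.9 ± 12.9, Il2rb at 40.9 ± 8.29 and Il7r at 28.4 ± 2.88. The prolactin receptor Prlr had 13, 7 and 11 counts. In all, 9 of 11 reached 1 CPM in every mouse, and 8 of 11 were lowest in mouse 5. Of the 10 tested receptors, 2 were over 2-fold apart for mouse 4 against mouse 5, against 2.54% of all genes tested. For the other pairs of mice it was 0. Of the 6 genes induced through STAT5 beside the members, Ccnd2 stood at 160.3 ± 8.85 CPM, Bcl2l1 at 118 ± 5.31, Igf1 at 58.5 ± 8.31, Bcl6 at 57.4 ± 8.78, Pim2 at 26.2 ± 3.73 and Igfals at 1.86 ± 0.212. No gene of these STAT5 lists passed the spread test.

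**Figure D5:**
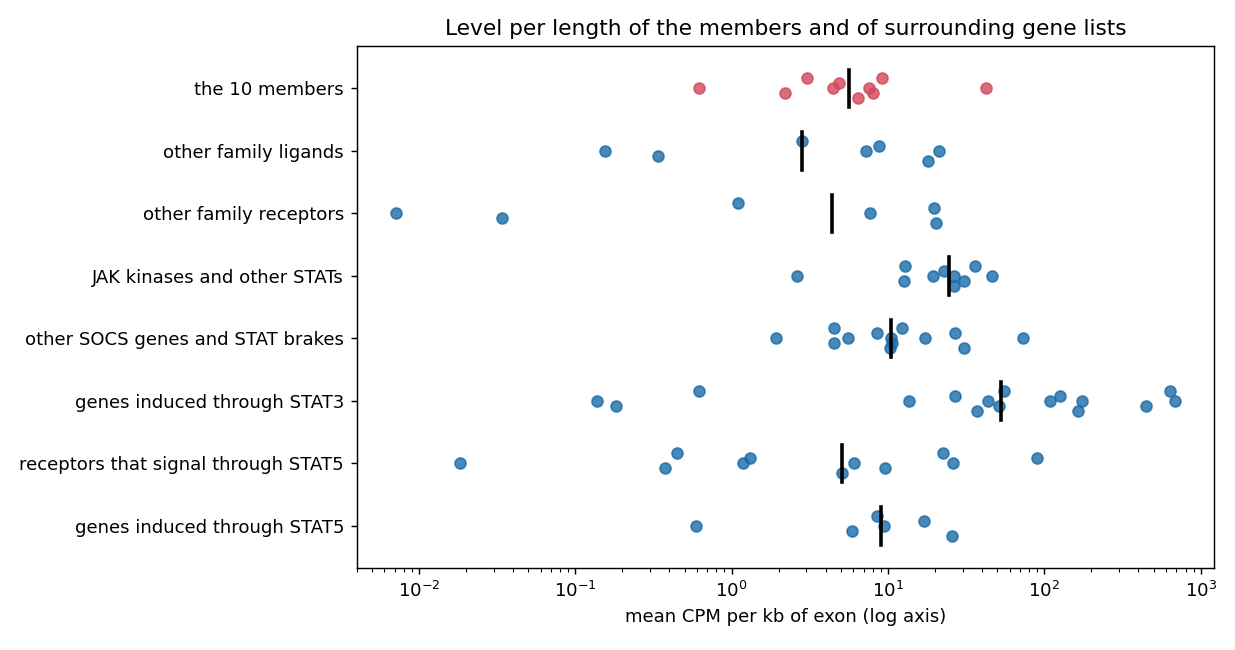
Mean CPM per kilobase of exon over the 3 mice (log axis) for the 10 members (red, top row) and for the surrounding gene lists (blue), 1 point per gene, with the vertical bar at the list median; 2 ligand genes at 0 counts are in the median but not drawn. The members' median is 5.63, and that of the genes induced through STAT3 is 53.01.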

How the data were processed

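The authors deposited whole-number counts per Ensembl gene with no normalization. Per the submitters' processing notes, bcl2fastq 2.17, Trim Galore 0.6.2, STAR 2.5.2a and mm10 were used, while what counted the reads, on which annotation and strand, is not given in the sources used here. RNA came from a Direct-zol kit and libraries from a Nugen mRNA kit, per the labels' protocols. GENCODE M21 named 53237 of 53342 identifiers. Totals were 43845715, 35674761 and 31579465 counts (mice 4, 5 and 6) and TMM factors 0.983, 1.01 and 1.004. Libraries differed beyond counting noise (chi-square per degree of freedom 36.6 to 94.3), so none was a copy. Spread was tested in edgeR 4.0.16 (R 4.3.3, filterByExpr, intercept only, robust, upper-tail F test), with limma 3.58.1 as an alternative. The edgeR step was run on simulated data in which 1 library was shifted for sets of 50 genes. With genes on the fitted trend it found 23 of 50 shifted 2-fold and 47 of 50 shifted 4-fold, with 3 false calls in all. With the fitted spread of each gene it found 11 and 44 of 50, with 37 false calls in all. Members and lists were chosen with earlier results of these data known. Named are all members, up to 6 genes per surrounding list by mean CPM, Il6st, Socs1, Stat3, Stat5b and genes at 0; others were named after their values were seen, and a few genes of the lists are not reported here. With 3 libraries of 1 group, no genes were ranked by likeness of pattern. Coordinates count from 1.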

Additional observations from a re-analysis of the deposited data

How the results depend on the processing

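Levels of the 10 members stayed within 1 SD of the reported means in all 60 recomputations (other scaling, or 1 mouse left out). With 3 mice, leaving 1 out cannot move a mean by 1 SD, so only the recomputations with other scaling could have failed. Lifr moved from 69.1 CPM to 56.8 without mouse 5 and 77.1 without mouse 4. Osm moved from 6.88 CPM to 7.92 without mouse 5 and 5.85 without mouse 4. Of 91 recomputed gene-pair differences, 90 kept their sign, and Osm over Lif turned to −0.48 with no length division. The spread test called 629 genes, 1 of them a member (Lifr), with no filter beyond 1 count, and 0 to 13 genes, 0 of them members, with 1 mouse left out (13 without mouse 4). It called 0 under DESeq2 size factors, a stricter filter, no robust step or limma, with 740 to 876 genes under an unadjusted p of 0.05. Genes over 2-fold apart numbered 690, 493 and 274 (mice 4 against 5, 4 against 6, 5 against 6) with a pseudocount of 0.1, and 68 for mice 5 against 6 with a pseudocount of 1, against 448, 288 and 117; the member count stayed at 0. No contrast between groups, paired or not, was possible because the 3 mice form 1 group. Depth limits Il6 most (164 counts in all).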

Other observations

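Erythroid and fibrinogen transcripts were highest in mouse 5. The fibrinogen genes Fga, Fgb and Fgg, liver-made targets of IL-6, had 11, 41 and 8, 9, 41 and 7, and 26, 88 and 26 counts in mice 4, 5 and 6. Fga and Fgb did not pass the filter on low counts. The receptor of erythropoietin (Epor) stood at 1.30, 3.21 and 2.55 CPM. All 5 erythroid markers were highest in mouse 5 as well, with sums of 1109, 2411 and 1277 CPM. Where these transcripts came from was not tested.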
